A study of Arabidopsis thaliana with 9 samples.

Results

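The data compare 3 libraries of aar2-2 mutant seedlings with 3 libraries of wild type (WT) Arabidopsis thaliana seedlings, 6 of the 9 libraries of the series. The other 3 libraries are of aar2-1 seedlings and were used to ask which changes of aar2-2 were absent or smaller in that allele. The groups differ by genotype: aar2-2, aar2-1 and WT, each with 3 replicates that the design text calls biological. All seedlings were 14 days old and were grown with 16 h of light and 8 h of darkness on 1/2 strength Murashige and Skoog (MS) medium; no treatment is named. The labels do not give the lesion of either allele, the accession of the wild type, or whether replicates came from separate cultures, so the p-values measure the spread between these samples. Each library lists the same 22903 loci in CPM, read counts scaled to a common library total. Of these loci, 18838 averaged at least 1 CPM over the 9 libraries and were tested.

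AAR2 takes its name from a Saccharomyces cerevisiae protein that binds Prp8 while the U5 small nuclear ribonucleoprotein (snRNP) is assembled, and that leaves before the helicase Brr2 joins. The U5 snRNP is one of the particles of the spliceosome, the machine that removes introns from pre-mRNA. Messenger RNA totals per gene, as measured here, count reads over a whole gene and do not show how its introns were spliced.

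The libraries held 32392645, 34412145 and 35266334 reads over genes in aar2-2, 29323854, 29163704 and 31304548 in aar2-1, and 24471217, 27715504 and 27557359 in WT. Every mutant library was thus deeper than every WT library, and the part of depth in the results was not tested. Summed leaf markers (4 genes) ranged over 38257 to 44226 CPM in aar2-2, 40461 to 43315 CPM in aar2-1 and 38169 to 44104 CPM in WT. Summed root markers (8 genes) ranged over 60.1 to 65.005 CPM in aar2-2, 52.7 to 63.4 CPM in aar2-1 and 65.6 to 67.4 CPM in WT. Only 2 of the 8 averaged at least 1 CPM, and single root markers went both ways. CASP1 had 0.154, 0.552 and 0.624 CPM in aar2-2 and 1.47, 0.830 and 0.943 CPM in WT. WOX5 had 1.23, 0.668 and 0.624 CPM in aar2-2 and 0.449, 0.180 and 0.435 CPM in WT. Summed seed markers (4 genes) ranged over 0.349 to 1.76 CPM in aar2-2, 0.767 to 2.52 CPM in aar2-1 and 1.63 to 3.75 CPM in WT. None of these marker genes was at 0 in all 9 libraries. In whole seedlings, fewer cells of a type and less RNA per cell cannot be told apart.

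AAR2 itself (AT1G66510; TAIR10.1 chr1:24812793-24816620, + strand, 13 introns) had 5.28, 4.36 and 4.11 CPM in aar2-2, 7.33, 5.49 and 5.30 CPM in aar2-1 and 7.64, 7.11 and 8.27 CPM in WT. The aar2-2 libraries lay below all WT libraries, and the highest of them lay just under the lowest aar2-1 library. The difference from WT passed the test (log2 fold change -0.64 ± 0.13, adjusted p = 0.00908; fold changes are of CPM + 1 with the standard error, from limma over all genes). The difference between the alleles was -0.33 (adjusted p = 0.263), and aar2-1 against WT was -0.31 (adjusted p = 0.101). For this gene alone an exact two-sided permutation test of aar2-2 against WT gave p = 0.1, the smallest that 3 against 3 libraries allow. AAR2 reads were thus fewer in aar2-2 but not absent. Exons of AT1G66520, on the opposite strand, overlap AAR2.

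In aar2-2 against WT, 4046 of the 18838 genes (21.5%) passed an adjusted p of 0.05, 2276 higher (12.1%) and 1770 lower (9.4%). Most differences were small: the median log2 fold change was 0.39 among genes called higher and -0.43 among those called lower, and 196 genes (1.04%) were past 2-fold, 88 higher (0.467%) and 108 lower (0.573%). The 3 aar2-2 libraries did not overlap the 3 WT libraries for 8331 genes (44.2%), 4719 higher (25.1%) and 3612 lower (19.2%). In aar2-1 against WT, 4732 genes (25.1%) passed, 2166 higher (11.5%) and 2566 lower (13.6%), and 433 (2.3%) changed at least 2-fold. After the samples were rescaled by the trimmed mean of M-values (TMM), 2078 genes were higher and 2113 lower in aar2-2. Leaving out 1 of the 6 libraries left between 1722 genes (without WT replicate 1) and 2643 genes (without WT replicate 3) called.

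Among the 10 genes with the largest fold increase, NAC044, a transcription factor of the DNA damage response, had 12.4, 11.9 and 15.65 CPM in aar2-2, 12.4, 12.4 and 10.2 CPM in aar2-1 and 0.572, 1.33 and 0.798 CPM in WT (log2 fold change 2.92 ± 0.16, adjusted p = 1.22e-05). AT2G04050, annotated as a MATE efflux protein, had 28.8, 34.2 and 41.0 CPM in aar2-2, 23.3, 30.3 and 23.7 CPM in aar2-1 and 2.82, 4.87 and 3.96 CPM in WT (log2 fold change 2.88 ± 0.17, adjusted p = 3.19e-05). For both genes all 6 mutant libraries lay above all WT libraries. ELIP1, an early light-induced protein that protects the photosynthetic apparatus, averaged 97.1 ± 14.9 CPM in aar2-2, 81.9 ± 23.4 CPM in aar2-1 and 22.2 ± 6.03 CPM in WT (SD, n = 3 each; log2 fold change 2.099 ± 0.22, adjusted p = 0.000588). AT5G60250, a RING zinc finger protein gene, rose by 2.54 (adjusted p = 0.000379) and the uncharacterized AT1G64795 by 3.38 (adjusted p = 8.79e-06). The exons of these 2 genes overlap a gene on the other strand. AT1G64795 averaged 0.230 CPM in WT and passed the 1 CPM filter through the mutant libraries. AT3G01345, uncharacterized and without an intron, had 10.09, 10.03 and 8.36 CPM in aar2-2, 31.1, 29.3 and 21.6 CPM in aar2-1 and 0.286, 3.28 and 0.254 CPM in WT, so that the aar2-2 libraries lay between those of aar2-1 and WT.

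Among the 10 genes with the largest fold decrease, ELI3-2, annotated as cinnamyl alcohol dehydrogenase 8, had 1.94, 0.465 and 1.28 CPM in aar2-2, 2.56, 2.16 and 1.21 CPM in aar2-1 and 16.6, 11.9 and 18.0 CPM in WT (log2 fold change -2.93 ± 0.26, adjusted p = 0.000297). The chitinase gene CHI (AT2G43570) had 12.7, 16.2 and 14.97 CPM in aar2-2, 14.4, 19.9 and 14.9 CPM in aar2-1 and 87.2, 41.4 and 73.9 CPM in WT (log2 fold change -2.07 ± 0.23, adjusted p = 0.000918). KTI1, a Kunitz trypsin inhibitor, averaged 3.24 ± 1.05 CPM in aar2-2, 5.54 ± 1.11 CPM in aar2-1 and 16.5 ± 4.53 CPM in WT (SD, n = 3 each; log2 fold change -2.04 ± 0.24, adjusted p = 0.00102). The uncharacterized AT4G13575 fell by 2.44 (adjusted p = 0.00021), AT3G25240 of the DUF506 family by 1.99 (adjusted p = 0.00185) and AT2G45220, a pectin methylesterase inhibitor family gene, by 1.97 (adjusted p = 0.00103). WT replicate 2 was the WT library nearest to aar2-2 for 10 of the 10 genes highest and 8 of the 10 genes lowest in aar2-2. None of these 20 genes lost its call in aar2-2 when WT replicate 2 was left out. Over all genes called without the library concerned, WT replicate 3 lay on the aar2-2 side of the other WT libraries for 73% of the genes, WT replicate 2 for 61.7% and WT replicate 1 for 52.6%. Such a choice favours genes whose other WT libraries lay far from aar2-2, which raises these shares. The gene sets also differed (2643, 2602 and 1722 genes, in that order), so the shares have no set baseline.

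**Figure D1:**
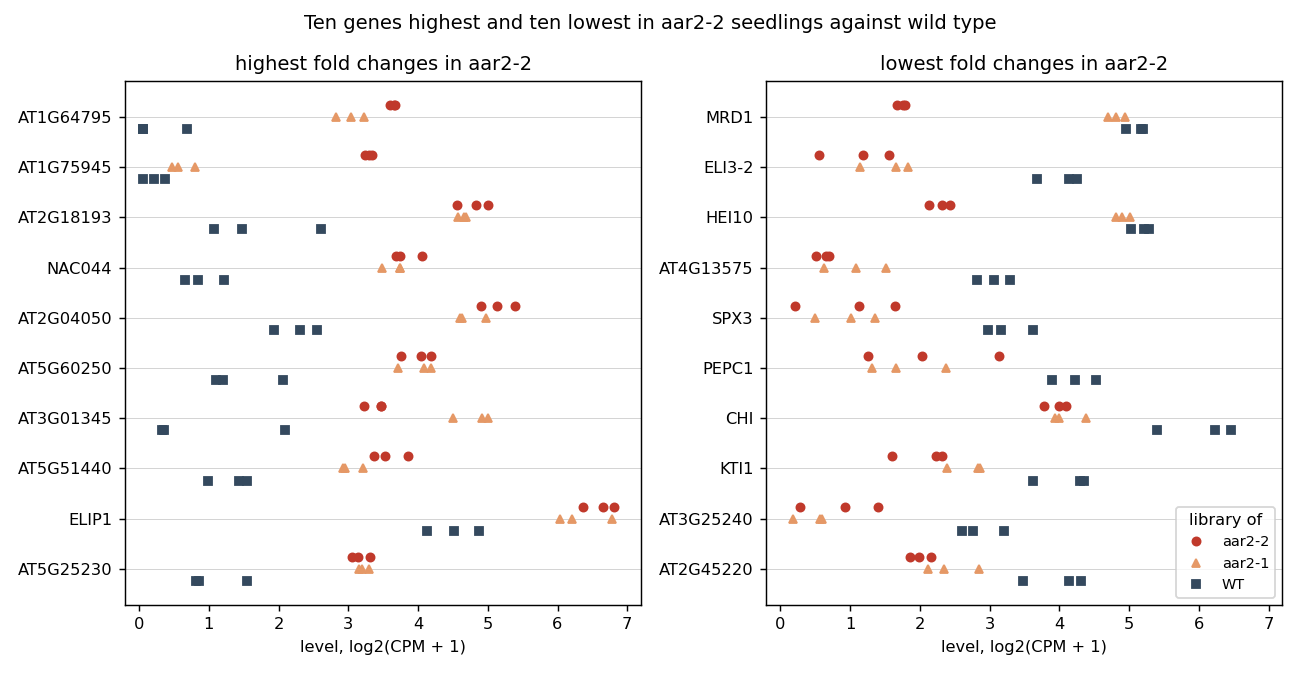
Levels of the 10 genes with the largest fold increase (left) and decrease (right) in aar2-2 against WT, as log2(CPM + 1) on the horizontal axis; each point is 1 library, circles aar2-2, triangles aar2-1, squares WT. All 3 aar2-2 libraries lie apart from all 3 WT libraries for each gene, which the rule of selection required. MRD1, HEI10 and AT1G75945 are the genes whose aar2-1 libraries lie near WT.

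Direct comparison of aar2-2 with aar2-1 found 4 genes (0.0212% of those tested), 1 higher (0.00531%) and 3 lower (0.0159%). An unadjusted p under 0.05 was reached by 3022 genes (16%), 1992 higher (10.6%) and 1030 lower (5.47%), and the libraries of the 2 alleles did not overlap for 3743 genes (19.9%). DESeq2 called 398 genes and edgeR 8, and limma called 175 without aar2-1 replicate 2, 13 without aar2-2 replicate 1 and 7 without aar2-2 replicate 3. At an unadjusted p under 0.05, 1364 genes were higher (7.24%) and 654 lower (3.47%) without aar2-2 replicate 1. The counts were 1263 (6.705%) and 746 (3.96%) without aar2-2 replicate 2, and 1882 (9.99%) and 1200 (6.37%) without aar2-2 replicate 3. They were 2242 (11.9%) and 975 (5.18%) without aar2-1 replicate 1, and 2209 (11.7%) and 1510 (8.02%) without aar2-1 replicate 2. Without aar2-1 replicate 3 they were 1103 (5.855%) and 646 (3.43%). Replicate 3 of aar2-1 had Spearman correlations of 0.9902 and 0.9839 with the other aar2-1 libraries, which correlated with each other at 0.9924. MRD1 (mto 1 responding down 1, AT1G53480) had 2.47, 2.38 and 2.18 CPM in aar2-2, 24.9, 27.2 and 29.6 CPM in aar2-1 and 35.1, 30.2 and 35.9 CPM in WT. HEI10, annotated as a RING/U-box protein and known for its role in meiotic crossing over, had 4.38, 4.01 and 3.40 CPM in aar2-2, 27.2, 28.7 and 31.4 CPM in aar2-1 and 35.96, 31.7 and 37.99 CPM in WT. In aar2-2 both were far below every other library, with a log2 fold change against aar2-1 of -3.08 for MRD1 (adjusted p = 2.18e-07) and -2.61 for HEI10 (adjusted p = 1.18e-06). Against WT the values were -3.37 in aar2-2 and -0.30 in aar2-1 for MRD1, and -2.88 in aar2-2 and -0.26 in aar2-1 for HEI10. The genes lie on opposite strands of chromosome 1 and share 1446 bases (TAIR10.1 chr1:19963047-19964712 for MRD1, chr1:19963267-19966952 for HEI10). The sources used here do not say whether reads were counted by strand, so reads of the 2 genes cannot be told apart, and the 2 values are not independent. Of the 6 tested genes nearest this pair, 0 differed between the alleles and 1, AT1G53460, was called higher in aar2-2 than WT by limma.

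AT1G75945, uncharacterized (TAIR10.1 chr1:28515245-28515916, - strand, 1 intron), had 9.11, 8.80 and 8.42 CPM in aar2-2, 0.7502, 0.480 and 0.383 CPM in aar2-1 and 0.163, 0.289 and 0.0363 CPM in WT. Its aar2-2 libraries lay far above all others, and it was the 1 gene called higher in aar2-2 relative to aar2-1 (log2 fold change 2.68, adjusted p = 7.93e-06). The gene averaged 0.163 CPM in WT and 0.538 CPM in aar2-1, and it passed the 1 CPM filter through the aar2-2 libraries. All aar2-1 libraries were above the WT libraries as well, by 0.40. None of its 6 nearest tested genes was called in either comparison (limma, adjusted p under 0.05). AT4G36850, a PQ-loop repeat membrane protein gene, had 23.2, 25.3 and 28.2 CPM in aar2-2, 46.6, 44.1 and 51.7 CPM in aar2-1 and 29.7, 27.9 and 32.7 CPM in WT. Its aar2-1 libraries stood above all others, and it was not called in aar2-2 against WT (adjusted p = 0.103). The log2 fold change against WT was -0.23 for aar2-2 and 0.64 for aar2-1, with -0.87 for aar2-2 against aar2-1 (adjusted p = 0.0119).

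Of all tested genes, 12.1% were higher and 9.4% lower in aar2-2, and 11.5% and 13.6% in aar2-1. Counts of list and family members here and below stand beside these shares. Among the 11 tested members of the U5 snRNP list, 5 rose (45.5%) and 1, AAR2, fell (9.09%). The median log2 fold change was 0.15, beside 0.032 over all genes. In aar2-1, 5 rose and 0 fell. AT5G25230, annotated as a ribosomal protein S5/elongation factor G family protein, had 8.89, 7.32 and 7.80 CPM in aar2-2, 8.83, 8.16 and 7.86 CPM in aar2-1 and 0.817, 1.91 and 0.762 CPM in WT (log2 fold change 2.09 ± 0.18, adjusted p = 0.000189). AT2G42270, a U5 snRNP helicase, had 62.0, 58.5 and 59.3 CPM in aar2-2, 61.7, 70.3 and 54.7 CPM in aar2-1 and 29.7, 29.7 and 27.8 CPM in WT (log2 fold change 1.02 ± 0.085, adjusted p = 0.000189). For both, every mutant library lay above every WT library. AT4G38780, a Prp8-like splicing factor, averaged 5.86 ± 0.796 CPM in aar2-2 and 2.22 ± 0.626 CPM in WT (SD, n = 3 each; log2 fold change 1.10 ± 0.19, adjusted p = 0.00537). MEE5, of the same annotated family as AT5G25230, rose by 0.53 (adjusted p = 0.0037) and EMB2770, the splicing factor STA1, by 0.38 (adjusted p = 0.00586). By contrast SUS2, the main Prp8 gene, had 270.1, 247 and 256 CPM in aar2-2, against 234, 227 and 235 CPM in WT (log2 fold change 0.15, adjusted p = 0.168), and emb1507, the main Brr2 gene, averaged 161 ± 10.4 CPM in aar2-2 and 150.3 ± 4.94 CPM in WT (log2 fold change 0.10, adjusted p = 0.402). AT4G38780 is a paralogue of SUS2, AT2G42270 of emb1507, and AT5G25230 of MEE5; paralogues can share reads, and how such reads were assigned is not given in the sources used here.

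Of 33 genes for splice site recognition and SR proteins, 11 rose (33.3%) and 0 fell in aar2-2 (median 0.088), beside 12.1% and 9.4% of all genes. In aar2-1, 10 rose and 2 fell. RSZ22a, a serine/arginine-rich protein gene, averaged 45.1 ± 1.81 CPM in aar2-2 and 29.8 ± 1.64 CPM in WT (SD, n = 3 each; log2 fold change 0.58 ± 0.067, adjusted p = 0.000944). U1A, a protein of the U1 snRNP, rose by 0.45 (adjusted p = 0.00197), PTB2, a polypyrimidine tract-binding protein, by 0.35 (adjusted p = 0.0049) and AT1G60900, a large subunit of U2AF, by 0.29 (adjusted p = 0.0128). These were small changes: the count was 8 after TMM scaling and 4 without aar2-2 replicate 2.

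Several genes of the DNA damage response rose in aar2-2. Of 23 tested, 10 rose (43.5%) and 0 fell, beside 12.1% and 9.4% of all genes, with a median of 0.37. In aar2-1, 8 rose and 0 fell, with a median of 0.12. Between the alleles, 1 of the 23 had an unadjusted p under 0.05 with aar2-2 above aar2-1 and 0 with aar2-2 below. Over all genes these shares were 10.6% and 5.47%. The median log2 difference between the alleles over the list was 0.10, so the list did not stand out in the direct comparison. Besides NAC044, GMI1, a gene induced by gamma irradiation, had 21.9, 22.7 and 22.1 CPM in aar2-2, 23.2, 20.7 and 18.6 CPM in aar2-1 and 5.31, 7.76 and 4.94 CPM in WT. All mutant libraries lay above WT (log2 fold change 1.75 ± 0.14, adjusted p = 0.000128). PARP2, a poly(ADP-ribose) polymerase, averaged 10.97 ± 0.495 CPM in aar2-2, 11.1 ± 0.715 CPM in aar2-1 and 5.72 ± 0.856 CPM in WT (SD, n = 3 each; log2 fold change 0.84 ± 0.10, adjusted p = 0.00118). BRCA1 and RAD54, which act in recombination repair, rose by 0.60 (adjusted p = 0.02) and 0.56 (adjusted p = 0.0286). AT5G02220, an inhibitor of cyclin-dependent kinases, rose by 0.80 (adjusted p = 0.0208). It averaged 0.725 CPM in WT and passed the 1 CPM filter through the mutant libraries. SOG1, the transcription factor that relays DNA damage signals, had 13.7, 13.6 and 13.0 CPM in aar2-2, against 13.4, 13.8 and 14.2 CPM in WT (log2 fold change -0.04, adjusted p = 0.802). NAC085, a close relative of NAC044 below the 1 CPM filter, had 1.51, 1.37 and 1.13 CPM in aar2-2 and 0.123, 0.325 and 0.145 CPM in WT; it was named after its values had been seen. The count of 10 was 6 without WT replicate 1 and 6 without WT replicate 2.

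SOG1 binds a palindrome, CTT and AAG set 7 bases apart. In the 250 bases before the gene start, on either strand, it was found in 7 of 26 promoters of the DNA damage list (26.9%), in 4 of its 10 genes called in aar2-2, and in 2121 of 22766 promoters of listed genes (9.32%). The 4 called genes that hold it are as follows, in the direction of the gene, from the TAIR10.1 genome, with the motif in capitals and 15 bases on either side (fewer where the gene start intervenes). A match describes the letters only.
NAC044, chr3:228995-229037, + strand: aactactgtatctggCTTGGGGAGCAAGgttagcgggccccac
PARP2, chr4:1049655-1049697, + strand: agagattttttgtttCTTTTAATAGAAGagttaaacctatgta
RAD54, chr3:6658989-6659024, - strand: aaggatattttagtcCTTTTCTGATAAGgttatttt
AT5G02220, chr5:442246-442288, - strand: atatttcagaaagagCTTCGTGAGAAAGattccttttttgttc

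Of 25 cell division genes, 6 rose (24%) and 0 fell in aar2-2 (median 0.19), beside 12.1% and 9.4% of all genes. In aar2-1, 6 rose and 3 fell. SYP111, the cytokinesis syntaxin KNOLLE, averaged 39.4 ± 2.197 CPM in aar2-2, 36.8 ± 2.88 CPM in aar2-1 and 24.3 ± 1.81 CPM in WT (SD, n = 3 each; log2 fold change 0.68 ± 0.081, adjusted p = 0.00113). AUR1, an Aurora kinase, rose by 0.64 (adjusted p = 0.0102) and CYC1BAT, a B-type cyclin, by 0.57 (adjusted p = 0.00324). CYCB1;1, a cyclin on the DNA damage list that DNA damage also induces, rose by 0.67 (adjusted p = 0.00634). The count of 6 was 3 without WT replicate 1 and 3 without WT replicate 2.

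Genes of the mitochondrial retrograde response, which nuclear NAC transcription factors switch on when mitochondria fail, held many increases: 10 of 24 rose and 1 fell (median 0.44). In aar2-1, 9 rose and 2 fell (median 0.24). AT2G18193, annotated as a P-loop nucleoside triphosphate hydrolase, had 22.6, 27.4 and 31.0 CPM in aar2-2, 24.3, 22.8 and 24.8 CPM in aar2-1 and 1.10, 5.12 and 1.78 CPM in WT (log2 fold change 3.08 ± 0.31, adjusted p = 0.000557). AT5G51440, an HSP20-like chaperone, had 9.32, 10.6 and 13.6 CPM in aar2-2, 6.58, 8.26 and 6.77 CPM in aar2-1 and 0.981, 1.91 and 1.71 CPM in WT (log2 fold change 2.27 ± 0.17, adjusted p = 0.000123). For both, all 6 mutant libraries were above all WT libraries. AOX1A, the alternative oxidase of the respiratory chain, averaged 95.9 ± 13.3 CPM in aar2-2, 85.7 ± 4.02 CPM in aar2-1 and 62.1 ± 0.634 CPM in WT (SD, n = 3 each; log2 fold change 0.61 ± 0.089, adjusted p = 0.00271). NAC13, one of the regulators, averaged 21.8 ± 0.880 CPM in aar2-2, 18.19 ± 1.95 CPM in aar2-1 and 10.995 ± 0.625 CPM in WT (log2 fold change 0.93 ± 0.087, adjusted p = 0.000386), and its exons overlap a gene on the other strand. AT2G21640, a marker of oxidative stress, rose by 1.27 (adjusted p = 0.00161). AOX1D, a second alternative oxidase, was the member that fell (log2 fold change -0.999 ± 0.23, adjusted p = 0.0146). Compared directly, 9 of the 24 had an unadjusted p under 0.05 with aar2-2 above aar2-1 and 0 with aar2-2 below, beside 10.6% and 5.47% of all genes, and 0 passed the adjusted test in limma. The 9 were 4 without aar2-2 replicate 3, 4 without aar2-1 replicate 3 and 5 without aar2-2 replicate 2. The count of 10 was at least 9 in every setting tried for it (other scalings, edgeR, the replicate block, and leaving out any aar2-2 or WT library).

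The mitochondrial dysfunction motif, CTTG and CANG set 5 bases apart, was found in 9 of 26 promoters of this list (34.6%), in 4 of the 11 called (36.4%) and in 364 of 22766 promoters of listed genes (1.6%), both strands read over 250 bases. A copy that ends in CAAG also matches the SOG1 motif given above. The copies in the 4 called genes follow, in the same form.
AT2G18193, chr2:7919408-7919450, - strand: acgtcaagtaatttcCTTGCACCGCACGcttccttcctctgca
AT2G04050, chr2:1339656-1339698, - strand: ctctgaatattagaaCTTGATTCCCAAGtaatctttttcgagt
AT2G04050, chr2:1339597-1339639, - strand: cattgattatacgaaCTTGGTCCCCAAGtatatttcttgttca
AT5G51440, chr5:20891038-20891080, + strand: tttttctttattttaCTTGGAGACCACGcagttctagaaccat
AT2G21640, chr2:9254312-9254354, + strand: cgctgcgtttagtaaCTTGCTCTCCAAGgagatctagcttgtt
AT2G04050 thus holds 2 copies. The wider MATE efflux family had 13 of 42 members higher (31%) and 2 lower (4.76%) in aar2-2, beside 12.1% and 9.4% of all genes. In aar2-1, 13 were higher and 5 lower. AT1G61890 averaged 79.98 ± 31.3 CPM in aar2-2, 81.1 ± 18.1 CPM in aar2-1 and 31.2 ± 5.86 CPM in WT (SD, n = 3 each; log2 fold change 1.28 ± 0.25, adjusted p = 0.0076). AT2G04070, like AT2G04050 a member of the retrograde list, rose by 1.09 (adjusted p = 0.00375).

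Phosphate starvation genes, which are switched on by PHR1 when phosphate is short, were the list with the lowest median in aar2-2: 18 of 30 fell and 0 rose (median -0.63). In aar2-1, 21 fell and 1 rose (median -0.67). SPX3, a phosphate sensor that restrains PHR1, had 0.154, 1.19 and 2.13 CPM in aar2-2, 0.409, 1.03 and 1.57 CPM in aar2-1 and 11.3, 6.86 and 7.95 CPM in WT (log2 fold change -2.26 ± 0.34, adjusted p = 0.00312). The noncoding RNA gene IPS1, which captures a microRNA, had 1.42, 2.73 and 5.25 CPM in aar2-2, 1.296, 1.37 and 3.23 CPM in aar2-1 and 14.8, 12.2 and 13.1 CPM in WT (log2 fold change -1.90 ± 0.32, adjusted p = 0.00468). Both transcripts were low in all 6 mutant libraries. PHT1;4, a phosphate importer, had 10.06, 22.8 and 20.5 CPM in aar2-2, 9.48, 10.08 and 8.66 CPM in aar2-1 and 52.1, 30.7 and 45.7 CPM in WT (log2 fold change -1.26 ± 0.27, adjusted p = 0.0115). PEPC1, a phosphatase, had 1.39, 3.08 and 7.80 CPM in aar2-2, 1.5005, 2.16 and 4.18 CPM in aar2-1 and 22.1, 13.9 and 17.8 CPM in WT (log2 fold change -2.08 ± 0.42, adjusted p = 0.00926). In SPX3 and PEPC1 the aar2-2 libraries spread widely, yet for these 4 genes all mutant libraries stayed below all WT libraries. Genes for lipids that replace phospholipids fell as well, MGDC by 1.89 (adjusted p = 0.0174), SQD1 by 0.38 (adjusted p = 0.0272) and SQD2 by 0.46 (adjusted p = 0.0231).

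In the direct comparison of the alleles, 7 of the 30 phosphate genes had an unadjusted p under 0.05 with aar2-2 above aar2-1 and 1 with aar2-2 below, beside 10.6% and 5.47% of all genes, and 0 passed the adjusted test in limma. The 7 were 17 without aar2-2 replicate 1, 4 without aar2-2 replicate 2 and 4 without aar2-2 replicate 3. SPX1 averaged 35.9 ± 15.4 CPM in aar2-2, 17.1 ± 2.50 CPM in aar2-1 and 69.2 ± 13.1 CPM in WT (SD, n = 3 each). Its log2 fold change against WT was -1.01 in aar2-2 and -1.95 in aar2-1, and the difference between the alleles was 0.94 (adjusted p = 0.205). G3Pp1, a glycerol-3-phosphate transporter, averaged 35.9 ± 7.46 CPM in aar2-2, 19.7 ± 4.32 CPM in aar2-1 and 64.1 ± 5.28 CPM in WT (difference between the alleles 0.83, adjusted p = 0.14). The count of 18 lower genes changed with 1 library: it was 5 without WT replicate 1 and 17 without WT replicate 2. Summed root markers were also lower in every aar2-2 library than in every WT library (values above), and their part in this result was not tested.

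PHR1 binds GNATATNC, which was found on either strand of the same 250 bases in 8 of 32 promoters of the list (25.0%), in 6 of the 18 called (33.3%) and in 1235 of 22766 promoters of listed genes (5.42%). SPX3 and SRG3, a gene of phosphodiester breakdown that fell by 1.19 (adjusted p = 0.0148), hold 2 copies each within 250 bases, shown in the same form.
SPX3, chr2:18606182-18606219, + strand: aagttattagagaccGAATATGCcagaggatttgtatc
SPX3, chr2:18606305-18606342, + strand: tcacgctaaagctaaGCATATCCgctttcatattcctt
SRG3, chr3:350115-350152, - strand: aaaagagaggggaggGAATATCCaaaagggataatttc
SRG3, chr3:350051-350088, - strand: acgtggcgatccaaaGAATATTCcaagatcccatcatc

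**Figure D2:**
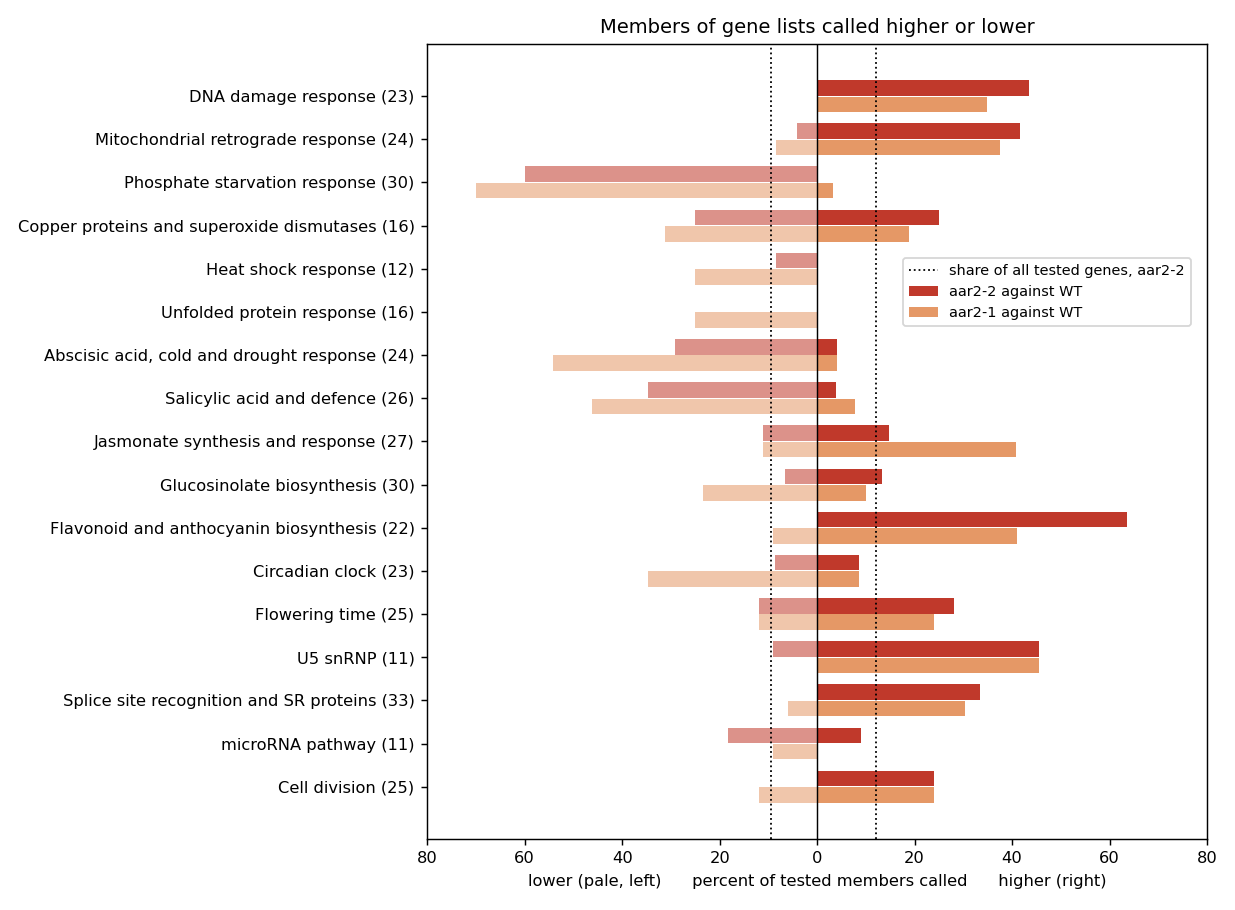
Share of tested members of each gene list called higher (right) or lower (left, pale) at an adjusted p under 0.05, in percent, for aar2-2 (upper bar) and aar2-1 (lower bar) against WT; the number of tested members is in parentheses and dotted lines give the shares of all tested genes in aar2-2, 12.1% higher and 9.4% lower. Flavonoid genes have the highest share higher in aar2-2 and phosphate starvation genes the highest share lower.

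Flavonoid and anthocyanin genes, which make ultraviolet-absorbing and red pigments from phenylalanine, were the list with the highest share of increases in aar2-2: 14 of 22 rose and 0 fell, with a median of 0.79. In aar2-1, 9 rose and 2 fell, with a median of 0.35. The first enzyme of the branch, chalcone synthase (TT4), had 380.2, 334 and 504 CPM in aar2-2, 322, 388 and 266 CPM in aar2-1 and 219, 198 and 194 CPM in WT (log2 fold change 0.97 ± 0.16, adjusted p = 0.00428), and its exons overlap a gene on the other strand. DFR, which leads into anthocyanins, had 82.5, 68.3 and 118 CPM in aar2-2, 85.6, 78.6 and 54.0 CPM in aar2-1 and 31.1, 30.4 and 28.5 CPM in WT (log2 fold change 1.51 ± 0.20, adjusted p = 0.00174). UF3GT, which adds a sugar to anthocyanins, had 25.2, 22.2 and 36.7 CPM in aar2-2, 22.03, 19.6 and 14.8 CPM in aar2-1 and 7.89, 9.42 and 7.18 CPM in WT (log2 fold change 1.64 ± 0.19, adjusted p = 0.000971). All aar2-2 libraries exceeded all WT libraries for these 3 genes. LDOX rose by 1.45 (adjusted p = 0.000771), TT7 by 1.44 (adjusted p = 0.000938), the transporter GSTF12 by 1.203 (adjusted p = 0.000771) and the regulator TT8 by 0.69 (adjusted p = 0.0174). The count of 14 was 11 without WT replicate 2, the lowest of the settings tried for it.

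Compared directly, 16 of the 22 flavonoid genes had an unadjusted p under 0.05 with aar2-2 above aar2-1 and 0 with aar2-2 below, beside 10.6% and 5.47% of all genes, and 0 passed the adjusted test in limma. TT5, chalcone isomerase, had 40.04, 43.6 and 54.0 CPM in aar2-2, 33.6, 35.6 and 22.8 CPM in aar2-1 and 24.3, 21.8 and 26.2 CPM in WT, with no overlap between aar2-2 and either other group. Against WT it stood at 0.89 in aar2-2 and 0.31 in aar2-1, and the difference between the alleles was 0.58 (adjusted p = 0.194). AT5MAT, which attaches malonyl groups to anthocyanins, had 17.1, 19.2 and 22.5 CPM in aar2-2, 14.9, 16.1 and 7.83 CPM in aar2-1 and 8.74, 8.95 and 9.33 CPM in WT (0.61 between the alleles, adjusted p = 0.237). FLS1, flavonol synthase, averaged 61.6 ± 9.83 CPM in aar2-2, 41.4 ± 5.79 CPM in aar2-1 and 31.2 ± 1.90 CPM in WT (SD, n = 3 each; 0.56 between the alleles, adjusted p = 0.153). The MYB regulators PAP1, MYB90 and MYB111 were not called in aar2-2 against WT; MYB90 averaged 3.48 ± 1.01 CPM in aar2-2, 1.28 ± 0.285 CPM in aar2-1 and 2.05 ± 0.247 CPM in WT and stood at 0.53 in aar2-2 and -0.43 in aar2-1, with 0.96 between the alleles (adjusted p = 0.132). Replicate 3 was the lowest aar2-1 library for TT4, DFR, UF3GT, TT5 and AT5MAT. Without it, and likewise without aar2-2 replicate 3, 11 of the 22 had an unadjusted p under 0.05 with aar2-2 above, and the median log2 difference between the alleles over the list was 0.31 and 0.34, beside 0.44 with all libraries.

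**Figure D3:**
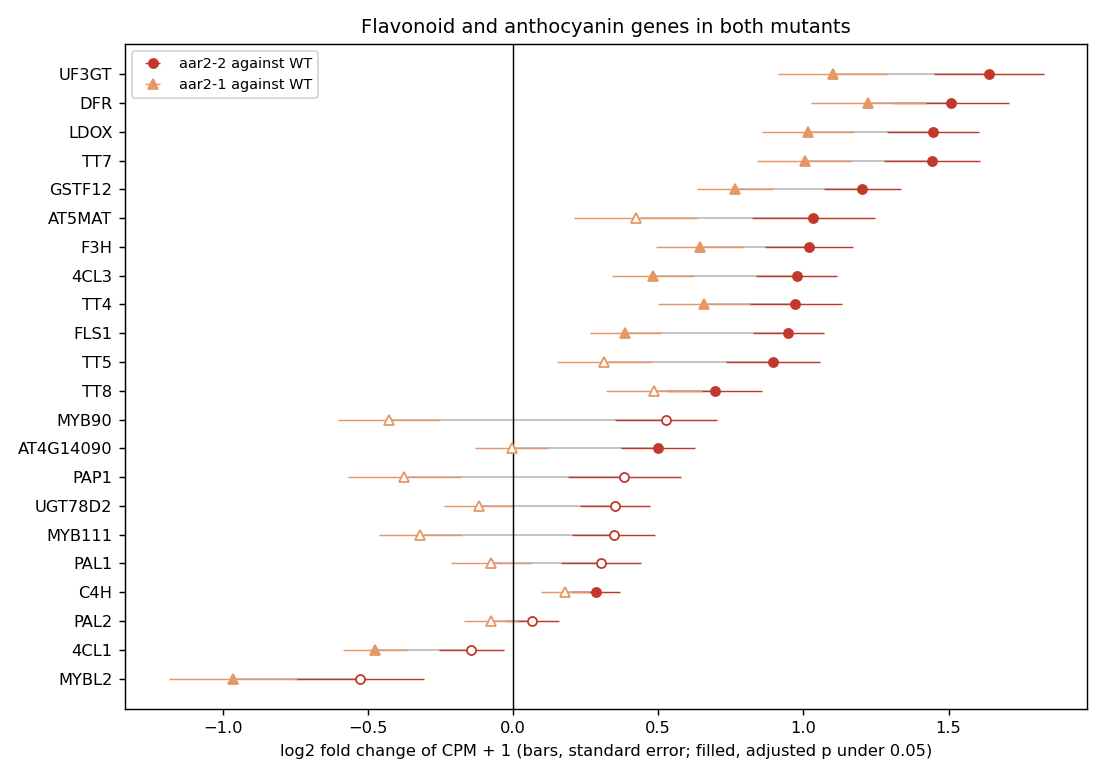
Log2 fold change against WT of the 22 tested flavonoid and anthocyanin genes in aar2-2 (circles) and aar2-1 (triangles), with standard errors; filled symbols passed an adjusted p of 0.05. The aar2-2 value lies to the right of the aar2-1 value for each gene, and both share the same WT libraries.

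Glucosinolate genes, whose products are sulfur-rich defence compounds, had 4 of 30 members higher (13.3%) and 2 lower (6.67%) in aar2-2 (median 0.12). These were near the shares of all genes (12.1% and 9.4%). In aar2-1, 3 glucosinolate genes were higher and 7 lower (median -0.11). Compared directly, 12 had an unadjusted p under 0.05 with aar2-2 above aar2-1 and 0 with aar2-2 below, beside 10.6% and 5.47% of all genes, and 0 passed the adjusted test in limma; the 12 were 7 without aar2-1 replicate 3. Without WT replicate 1, 0 were called higher and 0 lower in aar2-2 by limma, and without WT replicate 2, 1 higher and 2 lower. CYP79F1, which starts the methionine-derived branch, rose by 0.50 (adjusted p = 0.0154), and stood at 0.16 in aar2-1. CYP81F4, which modifies indole glucosinolates, fell by 0.96 (adjusted p = 0.017). SOT18, a sulfotransferase of the final step, averaged 51.3 ± 3.79 CPM in aar2-2, 33.1 ± 5.95 CPM in aar2-1 and 49.6 ± 4.43 CPM in WT (SD, n = 3 each), with 0.63 between the alleles (adjusted p = 0.136). Of the 16 unfolded protein response genes, 0 were called in aar2-2 by limma (median -0.012) and 4 fell in aar2-1 (median -0.25), and 9 had an unadjusted p under 0.05 with aar2-2 above aar2-1, beside 10.6% of all genes. The 9 were 3 without aar2-2 replicate 2 and 3 without aar2-1 replicate 3. BIP3, a chaperone of the endoplasmic reticulum, averaged 26.3 ± 4.21 CPM in aar2-2, 16.8 ± 1.51 CPM in aar2-1 and 19.04 ± 5.08 CPM in WT (SD, n = 3 each; 0.61 between the alleles, adjusted p = 0.204).

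Genes annotated as ribosomal proteins, leaving out products that name a plastid or mitochondrion, held mostly increases in aar2-2. Of 298 tested, 149 rose (50%) and 5 fell, beside 12.1% and 9.4% of all genes, with a median of 0.23. In aar2-1, 43 rose and 6 fell, with a median of 0.098. The fold change was above 0 for 274 of the 298 genes (91.9%) in aar2-2, beside 55.1% of all genes, and for 235 (78.9%) in aar2-1, beside 49.4%. The changes were small: RPSAb averaged 9.28 ± 0.955 CPM in aar2-2, 8.15 ± 0.756 CPM in aar2-1 and 6.21 ± 0.922 CPM in WT (SD, n = 3 each; log2 fold change 0.52 ± 0.12, adjusted p = 0.0145), and AT2G45710, a zinc-binding ribosomal protein, rose by 0.53 (adjusted p = 0.00479). AT4G26060 of the L18ae family fell by 0.60 (adjusted p = 0.00623). Compared directly, 74 of the 298 had an unadjusted p under 0.05 with aar2-2 above aar2-1 and 0 with aar2-2 below, beside 10.6% and 5.47% of all genes, and 0 passed the adjusted test in limma. The 74 were 22 (7.38%) without aar2-2 replicate 1, beside 7.24% of all genes, so the family did not stand out in that setting. They were 46 (15.4%, beside 6.705%) without aar2-2 replicate 2 and 59 (19.8%, beside 9.99%) without aar2-2 replicate 3. Without aar2-1 replicates 1, 2 and 3 they were 116 (38.9%, beside 11.9%), 38 (12.75%, beside 11.7%) and 29 (9.73%, beside 5.855%). The family was selected by words of the product and holds AT5G25230 and MEE5 named above. The 149 became 116 after quantile normalization, 57 without WT replicate 1 and 80 without WT replicate 2.

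**Figure D4:**
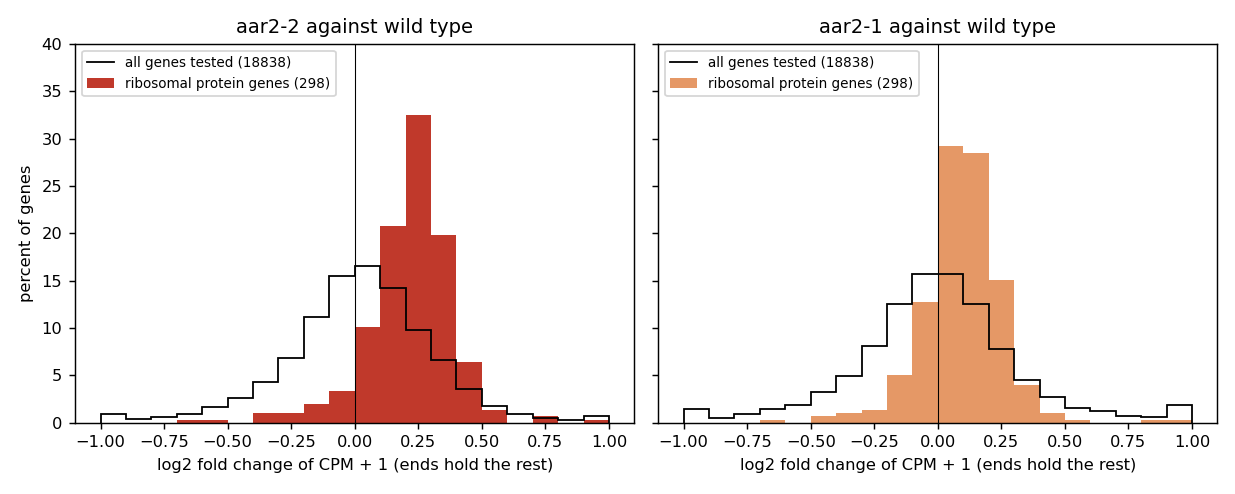
Share of genes, in percent, by log2 fold change in steps of 0.1 (the end bins hold all values beyond), for 298 ribosomal protein genes (bars) and all 18838 tested genes (line), in aar2-2 (left) and aar2-1 (right) against WT. The bars lie mostly right of 0 in both mutants, with a median of 0.23 in aar2-2 and 0.098 in aar2-1.

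RNA helicases had 15 of 60 higher and 1 lower in aar2-2 (median 0.14), and 4 higher and 1 lower in aar2-1, beside 12.1% higher and 9.4% lower over all genes in aar2-2. PMH1, a mitochondrial RNA helicase, averaged 40.5 ± 2.19 CPM in aar2-2, 34.0 ± 5.11 CPM in aar2-1 and 28.1 ± 1.06 CPM in WT (SD, n = 3 each; log2 fold change 0.51 ± 0.10, adjusted p = 0.00726). Pentatricopeptide repeat (PPR) proteins, which bind RNA in organelles, had 37 of 237 higher and 3 lower in aar2-2 (median 0.15), and 18 higher and 11 lower in aar2-1. DOT4, a PPR protein, averaged 8.24 ± 0.382 CPM in aar2-2, 5.92 ± 0.836 CPM in aar2-1 and 5.13 ± 0.428 CPM in WT (log2 fold change 0.59 ± 0.10, adjusted p = 0.00541; 0.42 between the alleles, adjusted p = 0.169). Between the alleles, 7 of the 60 helicases and 31 of the 237 PPR genes had an unadjusted p under 0.05 with aar2-2 above aar2-1. With aar2-2 below there were 0 and 4, beside 10.6% above and 5.47% below over all genes. The shares above were thus near that of all genes, and 0 members passed the adjusted test in limma. Without aar2-2 replicate 1, 10 PPR genes were called higher. Without WT replicate 1, 6 helicases were.

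Of 59 photosystem and light-harvesting genes, 18 fell and 3 rose in aar2-2 (median -0.18), and 6 fell and 3 rose in aar2-1 (median -0.15). Between the alleles, 1 of the 59 had an unadjusted p under 0.05 with aar2-2 above aar2-1 and 1 with aar2-2 below. These shares were under the 10.6% and 5.47% of all genes, so the family did not stand out in the direct comparison. LHCB2.3, an antenna protein of photosystem II, had 333, 228 and 195 CPM in aar2-2, 382, 409 and 342 CPM in aar2-1 and 439, 743 and 421 CPM in WT. Its aar2-2 libraries lay below all others (against WT -1.07 in aar2-2 and -0.45 in aar2-1; -0.62 between the alleles, adjusted p = 0.252). LHB1B1 averaged 536 ± 166 CPM in aar2-2, 748 ± 97.4 CPM in aar2-1 and 1345 ± 399.9 CPM in WT (SD, n = 3 each; log2 fold change -1.34 ± 0.25, adjusted p = 0.0071) and CAB2 2164 ± 484 CPM in aar2-2, 2909.8 ± 295 CPM in aar2-1 and 4454 ± 1343 CPM in WT (log2 fold change -1.03 ± 0.21, adjusted p = 0.0105). The antenna genes are near-identical copies in part, so reads may be shared among them, and the exons of LHCB2.3 overlap AT3G27700 on the other strand. WT replicate 2 had the highest LHCB2.3 level of the 9 libraries, and without that library 9 of the family were called lower. Without WT replicate 1, 6 were. The 2 light-harvesting members of the leaf marker list, CAB1 and LHCB2.1, are part of this family.

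Of 26 defence genes of the salicylic acid pathway, 9 fell (34.6%) and 1 rose (3.85%) in aar2-2 (median -0.38), beside 9.4% and 12.1% of all genes. In aar2-1, 12 fell and 2 rose. FMO1 and ALD1, enzymes that make the signal N-hydroxypipecolic acid, averaged 4.21 ± 0.383 CPM in aar2-2 and 16.99 ± 3.41 CPM in WT (log2 fold change -1.77 ± 0.15, adjusted p = 0.000251) and 4.65 ± 1.38 CPM in aar2-2 and 15.9 ± 4.499 CPM in WT (log2 fold change -1.57 ± 0.24, adjusted p = 0.00301; SD, n = 3 each). BGL2, the pathogenesis-related glucanase PR2, had 129, 152 and 122 CPM in aar2-2, 109, 92.1 and 94.6 CPM in aar2-1 and 414, 207 and 356 CPM in WT (log2 fold change -1.22 ± 0.21, adjusted p = 0.00514), lower in all mutant libraries. The 9 became 5 without WT replicate 1 and 14 without WT replicate 2. WRKY18, a transcription factor of this list, was the member that rose: it had 62.0, 113 and 229 CPM in aar2-2, 222, 143 and 342 CPM in aar2-1 and 37.4, 40.05 and 45.5 CPM in WT (log2 fold change 1.498 ± 0.42, adjusted p = 0.0305). It lost that call without WT replicate 1 and without WT replicate 2. Immune receptor genes of the TIR-NBS-LRR class had 18 of 77 higher and 4 lower in aar2-2 (median 0.15) and 33 higher and 3 lower in aar2-1. Compared directly, 23 of the 77 had an unadjusted p under 0.05 with aar2-2 below aar2-1 and 1 with aar2-2 above, beside 5.47% and 10.6% of all genes. The 23 were 10 without aar2-2 replicate 1, 12 without aar2-2 replicate 2, 15 without aar2-1 replicate 1 and 10 without aar2-1 replicate 3. WRR4 averaged 106 ± 34.2 CPM in aar2-2, 193 ± 58.7 CPM in aar2-1 and 57.4 ± 5.71 CPM in WT (SD, n = 3 each; -0.86 between the alleles, adjusted p = 0.19). Without WT replicate 1, 4 of the class were called higher in aar2-2, and without WT replicate 2, 7 were called higher and 8 lower.

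Of 24 abscisic acid, cold and drought genes, 7 fell (29.2%) and 1 rose (4.17%) in aar2-2 (median -0.19), beside 9.4% and 12.1% of all genes. In aar2-1, 13 fell and 1 rose. The phosphatase HAI1 averaged 2.28 ± 0.504 CPM in aar2-2 and 7.41 ± 0.619 CPM in WT (SD, n = 3 each; log2 fold change -1.37 ± 0.12, adjusted p = 0.000288), and COR15A, a cold-regulated protein, fell by 0.64 (adjusted p = 0.0206). CYP707A3, which breaks down abscisic acid, rose by 1.501 (adjusted p = 0.0404), a call lost without WT replicates 1 or 2, aar2-2 replicates 2 or 3, or aar2-1 replicate 1. Its relative CYP707A2 had 45.4, 41.6 and 39.7 CPM in aar2-2, 24.8, 26.2 and 12.6 CPM in aar2-1 and 18.6, 20.8 and 15.9 CPM in WT. The aar2-2 libraries were above all others (against WT 1.16 in aar2-2 and 0.14 in aar2-1; 1.03 between the alleles, adjusted p = 0.153). The abscisic acid response element ACGTGNC was found in 9 of 28 promoters of the list (32.1%) and in 2123 of 22766 (9.33%). Of 27 jasmonate genes, 4 rose (14.8%) and 3 fell (11.1%) in aar2-2 (median 0.23), near the shares of all genes (12.1% and 9.4%). In aar2-1, 11 jasmonate genes rose and 3 fell. The repressor JAZ1 rose by 0.93 (adjusted p = 0.0145), while TAT3, an aminotransferase, fell (log2 fold change -1.50, adjusted p = 0.004). Without WT replicate 2, 0 jasmonate genes were called higher by limma.

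Peroxidases had 12 of 40 lower (30%) and 0 higher in aar2-2 (median -0.27), beside 9.4% and 12.1% of all genes, and 15 lower and 2 higher in aar2-1. For the families named next, the share lower in aar2-2 was 22.1% for cytochrome P450 genes, 22.9% for UDP-glycosyltransferases and 19% for SAUR genes. Summed root markers were lower as well (values above), and their part was not tested. DOX1, an alpha-dioxygenase annotated with the peroxidases, averaged 6.05 ± 2.70 CPM in aar2-2, 9.45 ± 2.60 CPM in aar2-1 and 17.61 ± 2.58 CPM in WT (SD, n = 3 each; log2 fold change -1.48 ± 0.28, adjusted p = 0.00768). Cytochrome P450 genes had 29 of 131 lower and 8 higher (median -0.13; 57 lower and 13 higher in aar2-1), with CYP76C2 at -1.74 (adjusted p = 0.000538) and CYP705A5 at -1.54 (adjusted p = 0.00803). UDP-glycosyltransferases had 22 of 96 lower and 6 higher (median -0.13; 38 lower and 7 higher in aar2-1). UGT73C1, one of the 6, had 8.52, 9.10 and 10.3 CPM in aar2-2, 3.65, 5.28 and 2.65 CPM in aar2-1 and 5.56, 5.41 and 5.33 CPM in WT. Every aar2-2 library was above every other library (against WT 0.68 in aar2-2 and -0.44 in aar2-1; 1.12 between the alleles, adjusted p = 0.089). SAUR genes, early targets of auxin, had 8 of 42 lower and 1 higher (median -0.45; 11 lower and 3 higher in aar2-1), and AT1G29500 fell by 0.87 (adjusted p = 0.0126). Without WT replicate 1, 7 peroxidases, 14 P450 genes and 10 glycosyltransferases were called lower, and without aar2-2 replicate 3, 1 SAUR gene was.

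Flowering time genes included increases of FT, the mobile signal that starts flowering, and of LFY, which specifies floral meristems. FT had 3.797, 3.57 and 3.18 CPM in aar2-2, 3.27, 3.12 and 3.003 CPM in aar2-1 and 1.72, 1.19 and 1.38 CPM in WT (log2 fold change 0.90 ± 0.11, adjusted p = 0.0014). LFY averaged 1.23 ± 0.293 CPM in aar2-2, 1.57 ± 0.574 CPM in aar2-1 and 0.374 ± 0.0822 CPM in WT (SD, n = 3 each). Its log2 fold change was 0.69 ± 0.17 (adjusted p = 0.0197). The WT level of LFY was low, and the gene passed the 1 CPM filter through the mutant libraries. SPL2 averaged 32.7 ± 1.69 CPM in aar2-2, 44.4 ± 5.28 CPM in aar2-1 and 19.6 ± 1.34 CPM in WT (log2 fold change 0.71 ± 0.091, adjusted p = 0.00156). AGL24, a promoter of flowering, had 5.28, 5.40 and 5.98 CPM in aar2-2, 5.80, 5.73 and 6.29 CPM in aar2-1 and 14.9, 14.3 and 18.5 CPM in WT (log2 fold change -1.36 ± 0.10, adjusted p = 0.000123). For FT and AGL24 the mutant and WT libraries did not overlap. In all, 7 of 25 rose (28%) and 3 fell (12%) in aar2-2 (median 0.12), beside 12.1% and 9.4% of all genes. In aar2-1, 6 rose and 3 fell. Summed flower markers (5 genes) ranged over 3.09 to 4.05 CPM in aar2-2, 3.68 to 4.73 CPM in aar2-1 and 1.55 to 2.27 CPM in WT, with no overlap between mutants and WT. Of the 5, 1 passed the 1 CPM filter and was not called. With no filter, the log2 fold change in aar2-2 was 0.75 for AP1, 0.27 for AP3, 0.018 for PI and 0.0074 for AG. The part of these markers in the flowering changes was not tested. Leaving out WT replicate 2 left 4 called higher, and leaving out aar2-2 replicate 2 left 3.

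FLC, the main repressor of flowering, averaged under 1 CPM and so was outside the test, and was named after its values had been seen. It had 0.123, 0.0581 and 0.0284 CPM in aar2-2 (4, 2 and 1 reads), 0.0682, 0.103 and 0 CPM in aar2-1 (2, 3 and 0 reads), and 2.08, 2.96 and 2.39 CPM in WT (51, 82 and 66 reads). The mutant libraries were thus near 0 in both alleles. With no filter on low values, in a fit that called 18.1% of 22903 loci, the log2 fold change of FLC in aar2-2 was -1.69 ± 0.10 (adjusted p = 2.34e-05).

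Clock genes had 2 of 23 higher and 2 lower in aar2-2 (median -0.16), and 2 higher and 8 lower in aar2-1, beside 12.1% higher and 9.4% lower over all genes in aar2-2. The higher count was 0 by limma without WT replicate 2 and without aar2-2 replicate 2, and the lower count lay between 1 and 6 over the settings tried. LHY, a morning clock factor, averaged 67.3 ± 5.03 CPM in aar2-2, 84.1 ± 7.93 CPM in aar2-1 and 107 ± 22.7 CPM in WT (SD, n = 3 each; log2 fold change -0.65 ± 0.13, adjusted p = 0.0093), and PRR3, a clock repressor, 23.59 ± 1.88 CPM in aar2-2, 16.7 ± 0.540 CPM in aar2-1 and 17.9 ± 2.77 CPM in WT (log2 fold change 0.39 ± 0.11, adjusted p = 0.0286). Of 16 copper proteins and superoxide dismutases, 4 rose (25%) and 4 fell (25%) in aar2-2 (median 0.037), beside 12.1% and 9.4% of all genes. Without WT replicate 1, 1 rose and 2 fell. The copper/zinc dismutase CSD2 averaged 19.7 ± 0.977 CPM in aar2-2, 15.6 ± 1.74 CPM in aar2-1 and 32.7 ± 4.71 CPM in WT (log2 fold change -0.70 ± 0.11, adjusted p = 0.00351) and the iron dismutase FSD3 53.9 ± 4.58 CPM in aar2-2, 48.7 ± 5.002 CPM in aar2-1 and 39.8 ± 2.18 CPM in WT (log2 fold change 0.43 ± 0.088, adjusted p = 0.0105). In the microRNA pathway (median 0.076), 2 of 11 fell, DCL1 by 0.24 (adjusted p = 0.0172) and AGO1 by 0.21 (adjusted p = 0.0338), and SE rose by 0.18 (adjusted p = 0.0411), a call lost after TMM scaling. By limma, the 2 lower calls became 0 without WT replicate 1 or aar2-2 replicates 1 or 3, and 1 without each of the other WT and aar2-2 libraries. The exons of DCL1 overlap a gene on the other strand. Of 12 heat shock genes 1 fell (median -0.22), Hsp70b, by 0.47 (adjusted p = 0.0335), beside 9.4% of all genes. That call was lost without any 1 of the WT replicates and without aar2-2 replicates 1 or 3. The heat shock element GAANNTTC was found in 4 of 17 promoters of the list and in 2169 of 22766 (9.53%).

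Of the 2276 genes higher in aar2-2, 1071 were not called in aar2-1 against WT. Their median was 0.34 for aar2-2 and 0.17 for aar2-1, and 421 of them had an unadjusted p under 0.05 with aar2-2 above aar2-1. Of the 1770 lower, 419 were not called in aar2-1 (median -0.37 for aar2-2 and -0.20 for aar2-1), and 115 of them lay below aar2-1 by the same measure. Both sets were chosen for being called in aar2-2 and not in aar2-1. The gap between their medians and the counts of 421 and 115 thus follow in part from the choice. By the same measure, 514 of all 2276 higher genes had aar2-2 above aar2-1 and 92 below. Of all 1770 lower genes, 144 had aar2-2 below aar2-1 and 144 above. Among genes called in both mutants, these counts were 93 and 92 of 1205 higher genes, and 29 and 144 of 1351 lower genes. Apart from HEI10 and MRD1 among the lower genes and AT1G75945 among the higher, no gene called in aar2-2 passed the adjusted limma test of the difference with all 9 libraries, and the counts by DESeq2, by edgeR and without single libraries are those given above.

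Genes with the largest difference between the alleles among those called in aar2-2 and not in aar2-1 served varied functions. The rule that picked them also required an unadjusted p under 0.05 between the alleles. It further required aar2-2 libraries that overlapped neither other group. The same rule picked TT5, AT5MAT, CYP707A2 and UGT73C1, described above. RXF12, a glycosyl hydrolase of family 10, had 16.1, 19.8 and 15.8 CPM in aar2-2, 10.7, 7.27 and 6.42 CPM in aar2-1 and 11.97, 9.42 and 9.94 CPM in WT. DES1, L-cysteine desulfhydrase, had 8.37, 8.43 and 7.03 CPM in aar2-2, 5.66, 5.66 and 4.25 CPM in aar2-1 and 4.66, 5.02 and 4.64 CPM in WT. NAC3, a transcription factor, averaged 10.02 ± 1.61 CPM in aar2-2, 6.21 ± 0.685 CPM in aar2-1 and 6.76 ± 0.512 CPM in WT (SD, n = 3 each), and DREB2C, another transcription factor, averaged 3.78 ± 1.26 CPM in aar2-2, 2.13 ± 0.285 CPM in aar2-1 and 2.21 ± 0.187 CPM in WT. By that rule, the aar2-2 libraries of RXF12, DES1, NAC3 and DREB2C were all higher than the other 6. The difference between the alleles ranged from 0.54 for DES1 (adjusted p = 0.153) to 1.02 for RXF12 (adjusted p = 0.11). AT2G23910, of the NAD(P)-binding Rossmann fold superfamily, and AT3G11580, an AP2/B3-like transcription factor, also belong here, with 0.81 and 0.53 between the alleles (adjusted p = 0.168 and 0.161).

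Among the lower genes of this kind, YLS9, a late embryogenesis abundant family protein, had 0.926, 1.57 and 1.19 CPM in aar2-2, 3.21, 2.64 and 3.48 CPM in aar2-1 and 6.50, 2.201 and 6.02 CPM in WT. CCR2, a cinnamoyl CoA reductase of lignin synthesis, averaged 1.58 ± 0.453 CPM in aar2-2, 3.25 ± 1.15 CPM in aar2-1 and 3.25 ± 0.664 CPM in WT (SD, n = 3 each), and its exons overlap a gene on the other strand. PKS2, a phytochrome kinase substrate, had 17.5, 16.5 and 18.4 CPM in aar2-2, 24.1, 28.0 and 26.5 CPM in aar2-1 and 20.8, 27.7 and 21.6 CPM in WT. By the same rule, the aar2-2 libraries were the lowest for these genes. The differences between the alleles were -0.89 for YLS9 (adjusted p = 0.217), -0.70 for CCR2 (adjusted p = 0.205) and -0.56 for PKS2 (adjusted p = 0.136). The glycine-rich protein gene AT2G05510 had 0, 0.349 and 0.624 CPM in aar2-2, 1.09, 3.74 and 1.21 CPM in aar2-1 and 2.12, 2.13 and 3.23 CPM in WT. AT5G62280 of the DUF1442 family, the uncharacterized AT1G15830, the nucleotide-sugar transporter AT1G57980 and the lipid transfer family gene AT5G48490 also belong here, with differences between the alleles of -0.78 (adjusted p = 0.19), -0.67 (0.168), -0.57 (0.199) and -0.56 (0.183), in the order named. LHCB2.3 and HEI10, described above, are the other 2.

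Calls in aar2-2 varied with the number of introns of a gene. Of 2797 genes without an intron, 169 were higher (6.04%) and 468 lower (16.7%), whereas of 4848 genes with 5 to 9 introns, 685 were higher (14.1%) and 311 lower (6.42%). With 1 intron, 11.1% were higher and 10.9% lower, and with 10 or more introns, 12.8% and 8.74%. The shares thus did not rise or fall steadily with the number of introns. The median log2 fold change was -0.080 without an intron, 0.057 with 5 to 9 introns and 0.037 with 10 or more. In aar2-1, 192 of the genes without an intron were higher and 666 lower, and 658 of those with 5 to 9 introns were higher and 478 lower. After TMM scaling the medians in aar2-2 were -0.10 and 0.033. Without WT replicate 1, 69 of the intronless genes were called higher and 198 lower, and without WT replicate 2, 88 and 328 were. Of the 82 chloroplast-encoded genes tested, 9 were higher and 0 lower in aar2-2, beside 12.1% and 9.4% of all genes, and 23 were higher and 0 lower in aar2-1, beside 11.5% and 13.6%.

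**Figure D5:**
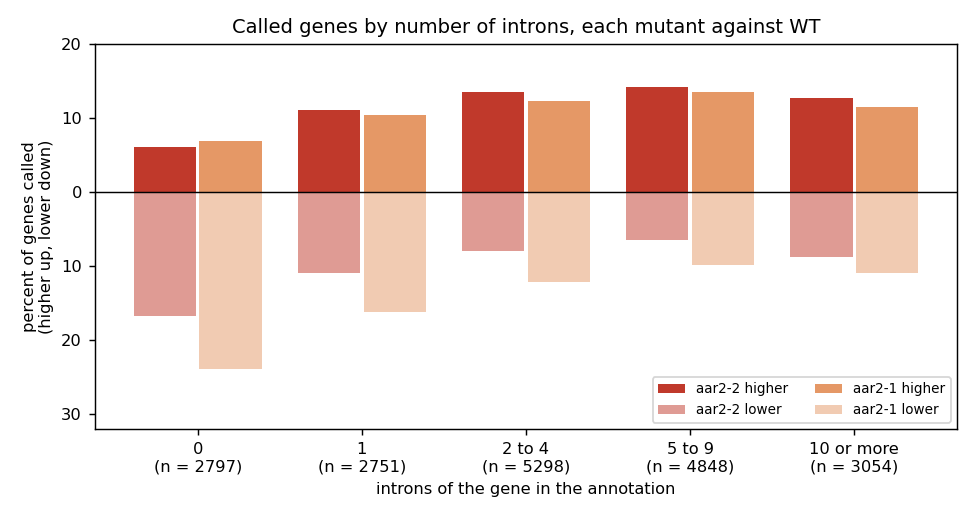
Share of tested genes called higher (up) or lower (down), in percent, by the number of introns in the annotation, for aar2-2 (left bar of each pair) and aar2-1 (right bar) against WT. Genes without an intron have the smallest share higher and the largest share lower in both mutants, 6.04% and 16.7% in aar2-2.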

How the data were processed

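Messenger RNA of 14-day-old seedlings was sequenced in 9 libraries, 3 each of aar2-2, aar2-1 and WT, assigned by sample title. The authors deposited CPM per locus; featureCounts 1.64 (version as written there), DESeq2 and TAIR10 are named in the submitters' processing notes, and the aligner is not given in the sources used here. In the deposited CPM, 100% of values were whole multiples of 1 read (tolerance 0.01 read), which gave read counts of 24471217 to 35266334 per library. No 2 libraries held the same values. Of 22903 loci, 22767 matched the RefSeq TAIR10.1 annotation, which supplied symbols, products, introns, overlaps and promoter sequences.

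Genes averaging at least 1 CPM over the 9 libraries (18838) were tested on log2(CPM + 1) with limma 3.58.1 (trend) in R 4.3.3. All 9 libraries were in 1 fit, with Benjamini-Hochberg adjustment, and genes were called at 0.05. This scale understates changes of low genes. A gene averaging under 1 CPM in 1 group could pass the filter through the other libraries. Examples are LFY, AT5G02220, NAC044, AT1G64795 and AT1G75945, each under 1 CPM on average in WT. AT1G75945 was under 1 CPM on average in aar2-1 as well. A count test was not the main test because the values are CPM. Alternatives were edgeR 4.0.16 and DESeq2 1.42.0 on recovered reads (4372 and 4618 genes called in aar2-2 against WT), quantile and TMM scaling, no filter, a pseudocount of 0.1, fits without trend, with the replicate block or with 2 groups, other thresholds, and leaving out each library. List counts under these settings, and the direct comparison of the alleles for lists without single libraries, were chosen after seeing the data. The limma step was tested on simulated data.

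Gene lists and the members were chosen with earlier results of these data known. Genes were named by rule: AAR2; the 10 higher and 10 lower with the largest called fold change and no overlap with WT; all that differed between the alleles; up to 10 per direction called in aar2-2, not in aar2-1, with an unadjusted p under 0.05 and no overlap between the alleles; and up to 4 called members per list. Members beyond these are given to complete their pathway.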

Additional observations from a re-analysis of the deposited data

Results flagged for a closer look

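In limma, 4 genes stood out because their change differed between the 2 alleles by a direct test. For MRD1 the log2 difference, aar2-2 minus aar2-1, was -3.08, with all 3 aar2-2 libraries below all 3 aar2-1 libraries. HEI10, which overlaps it on the other strand, differed by -2.61, again with no overlap. AT1G75945 differed by 2.68, with all 3 aar2-2 libraries on top. AT4G36850 differed by -0.87, where the aar2-1 libraries stood above both aar2-2 and WT. WT libraries enter this test through the shared estimate of spread.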

How the results depend on the processing

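The count of genes changed in aar2-2 against WT (4046) was between 3766 and 4630 under other scalings, filters, pseudocounts, tools and fits. It was 1178 at an adjusted p of 0.01, 196 at 2-fold, and from 1722 to 4692 without 1 library. For aar2-2 against aar2-1 (4), it was 398 by DESeq2, 8 by edgeR and 12 with the replicate block, and from 3 to 175 without 1 library (175 without aar2-1 replicate 2). For aar2-1 against WT (4732), it was 1699 at 0.01, 433 at 2-fold, and from 2331 to 4690 without 1 library. AAR2 kept its direction and call in aar2-2 in every setting, from -0.58 to -0.77, at -0.64 with the replicate block. Adding the replicate block gave 3966 calls for aar2-2 against WT and 4790 for aar2-1 against WT. Once the group mean of each gene was taken off, the remaining deviations of same-numbered aar2-2 and WT libraries correlated at -0.14, -0.19 and 0.26. The numbers were thus not taken as pairs. Among 199 other named genes, 0 of the values reversed, 37 of 1791 lost their call under other settings and 266 of 1791 on leaving out 1 library.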
